A study of Mus musculus with 4 samples.

Results

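Lipid droplet genes were examined in injured kidneys with and without tubular Apela. The set held 10 genes of the 54078 features in the table, namely 4 perilipins (Plin2, Plin3, Plin4 and Plin5), the triglyceride synthases Dgat1 and Dgat2, the lipases Pnpla2 and Lipe, and the lipase inhibitors G0s2 and Hilpda. Plin2 was chosen because its values differed clearly between the KO and WT libraries, so its difference is a description and has no test. The other 9 genes were taken for their role in lipid droplets, with earlier results of these data known. All 10 genes reached the minimum mean FPKM of 0.5.

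RNA-sequencing was performed on 4 kidney libraries, 2 from WT and 2 from ApelaKsp KO adult male mice, at day 3 after both kidneys had been clamped for 30 min (bI/R). ApelaKsp KO mice carried Apela flox/flox alleles and Ksp-Cre, a Cre recombinase driven by the Ksp-cadherin promoter of renal tubular epithelium, and WT mice were Apela flox/flox littermates without Cre. Both groups therefore carried the floxed alleles and the injury, and no sham-operated library was analysed here. The RNA of 3 mice was pooled for each library, so n = 2 counts pools, and the spread between pools is not that between animals. The sample labels give the strain as C57BL/6 x 129S4/SvJae, while the study's methods give C57BL/6. The text on the series' design names adipose tissue, whereas kidney is named by the title, by the labels of the samples and by the methods. Apela, the targeted gene, had an FPKM (fragments scaled by gene length and library total) of 5.27 and 4.57 in WT against 0.536 and 0.245 in KO.

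A lipid droplet is a store of triglyceride and steryl esters enclosed by a phospholipid monolayer. DGAT enzymes complete triglyceride synthesis, perilipins coat the droplet and control access to it, and the adipose triglyceride lipase encoded by Pnpla2 releases the first fatty acid. Proximal tubule cells depend on fatty acid oxidation for energy, and droplets are known to accumulate in them after ischemia.

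Promoters of the droplet genes were read to show which known response motifs they hold. Windows of 300 bases, from 250 before to 50 after a start site, were taken from RefSeq for 8 of the 10 genes on GRCm38.p6, 11 windows in all. The motifs searched on both strands were AGGTCA, the core bound by nuclear receptors such as PPARα, and ACGTG and GCGTG, the cores bound by hypoxia-inducible factors. The windows of Plin2 (chr4:86670010-86670309, minus strand), Plin5 (chr17:56117499-56117798, minus strand) and Hilpda (chr6:29272376-29272675, plus strand) are shown 5′ to 3′ because, of the genes whose KO and WT pools did not overlap, these hold AGGTCA or ACGTG, and capitals mark every match.
Plin2: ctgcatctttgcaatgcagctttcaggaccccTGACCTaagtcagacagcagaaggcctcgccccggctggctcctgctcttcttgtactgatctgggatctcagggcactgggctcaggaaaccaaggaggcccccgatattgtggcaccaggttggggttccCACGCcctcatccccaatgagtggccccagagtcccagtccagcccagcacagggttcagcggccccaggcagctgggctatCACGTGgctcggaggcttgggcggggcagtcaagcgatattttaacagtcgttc
Plin5: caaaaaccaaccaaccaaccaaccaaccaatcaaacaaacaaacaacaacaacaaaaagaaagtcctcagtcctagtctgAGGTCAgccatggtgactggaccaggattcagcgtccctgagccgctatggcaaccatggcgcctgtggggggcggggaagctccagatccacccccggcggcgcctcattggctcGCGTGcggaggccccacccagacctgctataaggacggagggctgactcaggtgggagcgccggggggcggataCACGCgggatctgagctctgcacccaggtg
Hilpda: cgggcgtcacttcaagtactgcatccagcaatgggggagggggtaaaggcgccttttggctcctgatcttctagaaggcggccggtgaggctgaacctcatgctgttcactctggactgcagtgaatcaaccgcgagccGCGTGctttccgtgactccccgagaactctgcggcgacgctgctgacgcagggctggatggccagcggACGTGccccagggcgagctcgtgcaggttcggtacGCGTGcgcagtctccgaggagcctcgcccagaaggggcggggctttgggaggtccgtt

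The Plin2 window held AGGTCA, read on the other strand as TGACCT, at -218 to -213, counted from a start site at 1 with no base 0. It also held CACGTG at -4 to 2, which contains ACGTG on both strands, and GCGTG on the other strand at -86 to -82. In Plin5, AGGTCA lay at -170 to -165. Hilpda held ACGTG at -43 to -39 and GCGTG at -111 to -107 and -8 to -4. AGGTCA was in 3 of the 11 windows (of Plin2 and Plin5), ACGTG in 3 (of Plin2, Lipe and Hilpda) and GCGTG in 7, from 5 genes, where 16.3%, 19.6% and 32.4% of all 32851 RefSeq windows held them. Plin5, Lipe and Hilpda have 2 windows each, some of which overlap. The windows of the set were also richer in GC, with a median of 61.0% against 52.7% over all windows, and both ACGTG and GCGTG contain CG. The Pnpla2 window, chr7:141454938-141455237, held none of these letters and the G0s2 window, chr1:193273139-193273438, held only GCGTG, at -142 to -138. These matches describe letters in a window and do not show binding.

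The question asked of the libraries was whether loss of tubular Apela altered gene expression in the injured kidney. The study's own processing of this comparison gave differentially expressed genes at an adjusted p under 0.05, with a model its methods do not name. The 4 libraries held 16045724 to 16927742 reads on genes, recovered from FPKM and gene length, and a chi-square of these reads (37.1 per gene in WT, 28.6 in KO) gave no sign that the pools of a group are repeats of 1 library. Across 15414 genes tested with limma on log2(FPKM + 0.5), 0 (0%) had a Benjamini-Hochberg adjusted p-value under 0.05, while 974 (6.32%) had an unadjusted p under 0.05. With voom weights on the recovered reads these counts were 0 and 970. Apela itself had a log2 fold change of -2.62 in the main fit. Its limma p was 0.000132 unadjusted and 0.466 after Benjamini-Hochberg adjustment, so the threshold did not call even the targeted gene. A fold change on this scale understates the change of genes of low level, and the smallest two-sided p that exact permutation of these 4 pools allows is 0.333. In whole kidney, fewer cells of a type and less RNA per cell cannot be told apart.

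In 5 of the 10 droplet genes, both KO pools lay above both WT pools, and in 0 they lay below. These were Plin2, Plin5, Pnpla2, G0s2 and Hilpda, that is 2 coat proteins, a lipase and both lipase inhibitors. Apart from Plin2 this was 4 of 9 genes, where 19.7% of all genes tested had both KO pools above and 18.1% both below. The same 4 genes had an unadjusted p under 0.05 in the limma fit, all higher in KO, where 3.29% of all genes tested did so. None of the 9 passed the threshold after Benjamini-Hochberg adjustment. The 9 genes were chosen with earlier results of these data known, so the shares of all genes are a background and not a test. Apart from Plin2, 8 of the 9 genes had a log2 fold change above 0, where 51.4% of all genes tested did. Their median log2 fold change was 0.63, beside 0.00707 over all genes tested, and it was 0.22 without WT pool 2, 0.34 without KO pool 1, 0.87 without WT pool 1 and 0.79 without KO pool 2.

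**Figure D1:**
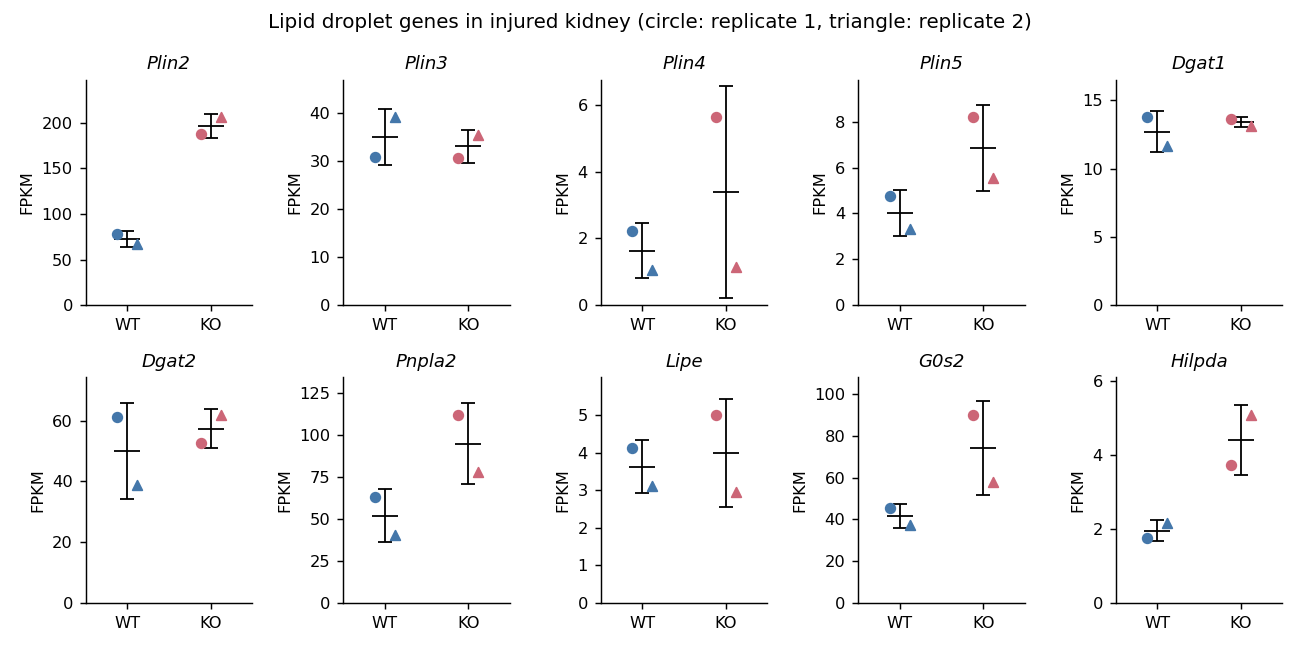
FPKM (vertical axes, each from 0) of the 10 lipid droplet genes in the WT and KO pools, with circles for replicate 1, triangles for replicate 2, and the mean ± SD of 2 pools as bars. The KO points lie above both WT points in Plin2, Plin5, Pnpla2, G0s2 and Hilpda, and the groups overlap in the other 5 genes.

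Among the coat proteins, Plin2 (ENSMUSG00000028494), the perilipin found on droplets of most tissues, is encoded on the minus strand of chromosome 4 (GRCm38, 86648386 to 86670060). Its FPKM was 78.4 and 66.5 in WT against 187 and 206 in KO. These are 72.4 ± 8.42 (SD, n = 2) in WT, against 196 ± 13.3 in KO (SD, n = 2), a ratio of 2.71. Both KO pools were high and both WT pools low. The log2 fold change, the value that chose Plin2, was 1.44 (standard error 0.16) with a range of 1.32 to 1.55 when any pool was dropped. It ranked 61 of 15414 genes, and the mean level of Plin2 ranked 335. Of the 1839 stretches of 50 nt in its longest transcript, 90 also occurred in the pseudogene Gm12551.

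Plin5 (ENSMUSG00000011305), the perilipin of tissues with high fatty acid oxidation that holds droplets close to mitochondria, is encoded on the minus strand of chromosome 17 (56111601 to 56117596). Its FPKM was 4.74 and 3.31 in WT against 8.19 and 5.55 in KO, from 119 to 286 reads. Both KO pools lay above both WT pools, although KO pool 2 was only slightly above WT pool 1. The mean was 4.03 ± 1.01 (SD, n = 2) in WT, against 6.87 ± 1.87 in KO (SD, n = 2), and the log2 fold change was 0.70 (95% confidence interval 0.03 to 1.37). The limma p-value was 0.0438 unadjusted and 0.785 after Benjamini-Hochberg adjustment, which ranged from 0.746 to 0.824 over the alternatives. The unadjusted value was 0.0603 with no filter on low genes and 0.0557 without a mean-variance trend. Without KO pool 1 the log2 fold change was 0.44.

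Plin4 (ENSMUSG00000002831), a coat protein with a long repetitive amphipathic stretch, lies 1797 nt from Plin5 (56100591 to 56109803, also minus strand). It had an FPKM of 2.23 and 1.05 in WT against 5.63 and 1.15 in KO. KO pool 1 alone stood high, and KO pool 2 lay between the WT pools. The log2 fold change of 0.63 (95% confidence interval -1.19 to 2.46; limma adjusted p = 0.881, range 0.819 to 0.899 over the alternatives) turned to -0.32 without KO pool 1. Plin4 shares 17 nt of exon with Hdgfl2 on the opposite strand, whose FPKM was 7.96 to 9.09.

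Plin3 (ENSMUSG00000024197), a perilipin that moves between the cytosol and nascent droplets, lies 159879 nt from Plin5 on the same chromosome and strand. It had an FPKM of 30.9 and 39.0 in WT against 30.5 and 35.4 in KO. The groups overlapped, with a log2 fold change of -0.08 (95% confidence interval -0.52 to 0.36; limma adjusted p = 0.943, range 0.916 to 0.949 over the alternatives), which lay between -0.24 and 0.09 with each pool left out. Of these neighbours on chromosome 17, Plin4 and Plin5 were both highest in KO pool 1 and lowest in WT pool 2, while Plin3 was highest in WT pool 2 and lowest in KO pool 1.

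The perilipin composition of the pools followed from these values. The summed FPKM of the 4 perilipins was 116 and 110 in WT against 231 and 248 in KO. Plin2 made up 67.4% and 60.5% of it in WT and 80.8% and 83.0% in KO. The rest of the sum was mainly Plin3, at 26.6% and 35.5% in WT and 13.2% and 14.3% in KO. Plin5 held 2.24% to 4.08% and Plin4 0.465% to 2.44%, and for both the groups overlapped. Since Plin2 was chosen on its difference, these shares have no test. Plin1, the perilipin of adipocytes, had 4 and 1 reads in WT against 27 and 9 in KO, or an FPKM of 0.0125 to 0.347, and was named after its values had been seen.

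**Figure D2:**
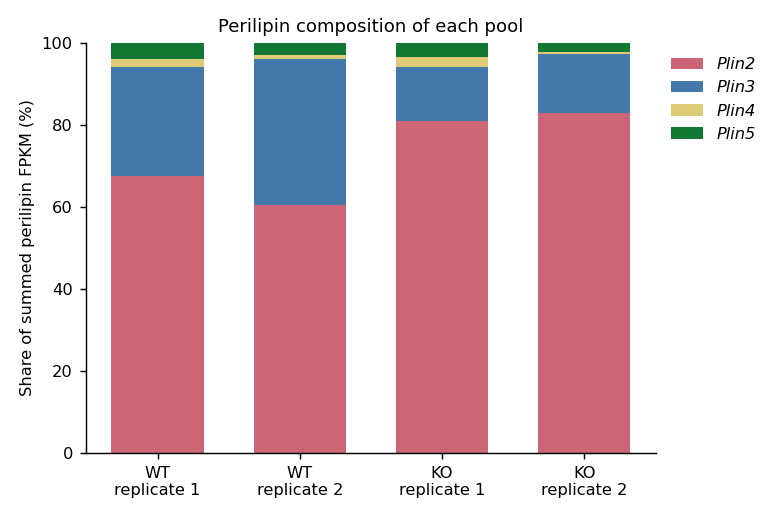
Share of Plin2, Plin3, Plin4 and Plin5 in their summed FPKM (vertical axis, %) in each of the 4 pools. Plin2 takes 60.5% to 67.4% in the WT pools and 80.8% to 83.0% in the KO pools, and Plin3 the larger part of the remainder.

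Both triglyceride synthases overlapped between the groups. Dgat1 (ENSMUSG00000022555; chromosome 15, 76502015 to 76511953, minus strand), which re-esterifies fatty acids in the endoplasmic reticulum, had an FPKM of 13.8 and 11.7 in WT against 13.7 and 13.1 in KO. Its log2 fold change was 0.08 (95% confidence interval -0.26 to 0.41; limma adjusted p = 0.925, range 0.887 to 0.959 over the alternatives), the narrowest interval of the 9 genes. Dgat2 (ENSMUSG00000030747; chromosome 7, 99153658 to 99182719, minus strand), which also acts at the droplet surface and is linked to newly made fatty acids, had 61.1 and 38.9 in WT against 52.7 and 61.8 in KO. WT pool 2 was low and the other 3 pools were close, and the log2 fold change of 0.23 (95% confidence interval -0.44 to 0.89; limma adjusted p = 0.883, range 0.851 to 0.944 over the alternatives) was -0.10 without WT pool 2. The ratio of Dgat2 to Dgat1 was 4.44 and 3.33 in WT and 3.86 and 4.71 in KO, without separation.

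Of the 2 lipases, Pnpla2 did not overlap between the groups and Lipe did. Pnpla2 (ENSMUSG00000025509; chromosome 7, 141455198 to 141460743, plus strand) had an FPKM of 63.3 and 40.8 in WT against 112 and 77.9 in KO. The KO values exceeded the WT values, but the pools of each group were well apart, at 52.0 ± 15.9 (SD, n = 2) in WT, against 94.9 ± 24.1 in KO (SD, n = 2). The log2 fold change was 0.87 (95% confidence interval 0.10 to 1.64), with a limma p of 0.034 unadjusted and 0.785 after Benjamini-Hochberg adjustment (0.746 to 0.824 over the alternatives). It was 0.56 without WT pool 2 and 1.19 without WT pool 1.

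Lipe (ENSMUSG00000003123; chromosome 7, 25379527 to 25398710, minus strand) encodes hormone-sensitive lipase, which acts mainly on diglycerides. Its FPKM was 4.13 and 3.12 in WT against 5.00 and 2.96 in KO, so that the KO pools enclosed the WT pools. The log2 fold change was 0.09 (95% confidence interval -0.63 to 0.81; limma adjusted p = 0.961, range 0.943 to 0.964 over the alternatives). An antisense gene, 4732471J01Rik, shares 918 nt of exon with Lipe, and its FPKM was 0.166 to 0.242. Pnpla2 exceeded Lipe 15.3 and 13.1 times in the WT pools and 22.4 and 26.3 times in the KO pools, which do not overlap.

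Both inhibitors of the Pnpla2 lipase were higher in both KO pools. G0s2 (ENSMUSG00000009633; chromosome 1, 193272161 to 193273217, minus strand) binds the lipase directly and blocks it. It had an FPKM of 45.6 and 37.4 in WT against 89.9 and 58.0 in KO, or 41.5 ± 5.80 (SD, n = 2) and 74.0 ± 22.5 (SD, n = 2). KO pool 1 stood highest and KO pool 2 was also above both WT pools. Its log2 fold change was 0.80 (95% confidence interval 0.13 to 1.46), with a limma p of 0.0279 unadjusted and 0.785 after Benjamini-Hochberg adjustment (0.746 to 0.824 over the alternatives), and 0.48 without KO pool 1. G0s2 lies within the span of Lamb3 on the opposite strand, with 0 nt of shared exon, and Lamb3 had an FPKM of 1.18 to 2.42.

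Hilpda (ENSMUSG00000043421; chromosome 6, 29272488 to 29275446, plus strand) encodes a small droplet protein that is induced by hypoxia and fatty acids and inhibits the same lipase. It had an FPKM of 1.75 and 2.16 in WT against 3.74 and 5.08 in KO, from 31, 41, 69 and 91 reads. The means were 1.96 ± 0.291 (SD, n = 2) and 4.41 ± 0.948 (SD, n = 2), and the lowest KO pool was clearly above the highest WT pool. The log2 fold change was 0.99 (95% confidence interval 0.47 to 1.51), with a limma p of 0.00489 unadjusted and 0.657 after Benjamini-Hochberg adjustment (0.605 to 0.809 over the alternatives). With each pool left out it lay between 0.79 and 1.19. Hilpda had the lowest unadjusted p of the 9 genes and also few reads.

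Inhibitor and lipase transcripts were set against each other in each pool. The summed FPKM of G0s2 and Hilpda was 0.749 and 0.972 times that of Pnpla2 in the WT pools and 0.836 and 0.811 times in the KO pools. The KO values lay between the WT values, at 0.824 ± 0.0179 (SD, n = 2) against 0.860 ± 0.158 (SD, n = 2), with no test. G0s2 supplied nearly all of this sum, as Hilpda was 0.0276 and 0.0530 times Pnpla2 in WT and 0.0334 and 0.0653 times in KO. Plin2 was 1.24 and 1.63 times Pnpla2 in WT and 1.67 and 2.64 times in KO.

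The order of the levels per gene length was similar in both groups. In WT, Plin2 (72.4) lay apart from the rest. It was followed by Pnpla2 (52.0), Dgat2 (49.99), G0s2 (41.5) and Plin3 (34.9), of which each overlapped the next. Dgat1 (12.7) stood alone, then came Plin5 (4.03) and Lipe (3.63), which overlapped, and Hilpda (1.96) and Plin4 (1.64), which overlapped too. In KO, Plin2 (196) lay apart too, above Pnpla2 (94.9), which overlapped G0s2 (74.0), and G0s2 overlapped Dgat2 (57.3). Below them, Plin3 (33.0) and Dgat1 (13.4) were each separate. Plin5 (6.87) lay above Hilpda (4.41) and Lipe (3.98), which overlapped each other, and the wide range of Plin4 (3.39) reached from below Lipe into that of Plin5.

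The droplet genes also varied within the groups. In WT, 8 of the 10 genes were higher in pool 1 than in pool 2, all but Plin3 and Hilpda. In KO, 6 were higher in pool 1, namely Plin4, Plin5, Dgat1, Pnpla2, Lipe and G0s2. In the 5 genes whose groups overlapped, the direction of the log2 fold change turned when 1 pool was left out. In the other 5 it could not turn, since their groups do not overlap.

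**Figure D3:**
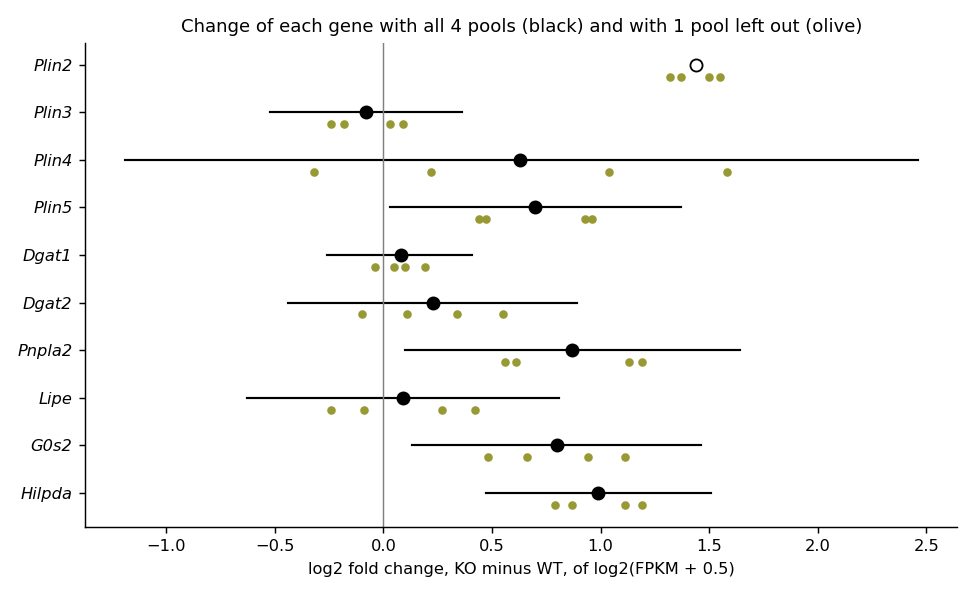
Log2 fold change, KO minus WT, of log2(FPKM + 0.5) (horizontal axis) of the 10 genes, with the 95% confidence interval from limma as a line, and the values with 1 pool left out as olive points. Plin2 is an open circle without interval because its difference chose it, and the intervals of Plin5, Pnpla2, G0s2 and Hilpda lie above 0 before adjustment.

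Other genes of the droplet pathway were examined in 6 lists that hold none of the 10 genes. In each list 0 genes passed the Benjamini-Hochberg threshold in limma, and counts at an unadjusted p under 0.05 follow, beside 3.29% higher and 3.03% lower among all genes tested. Both KO pools lay above both WT pools in 7 of 17 tested genes for droplet coat and assembly, 9 of 18 for lipolysis and lipophagy, 5 of 22 for glycerolipid and steryl ester synthesis, 10 of 20 for fatty acid uptake and activation, 3 of 16 for fatty acid synthesis and 6 of 19 regulators. They lay below in 3, 0, 2, 3, 5 and 3 genes of these lists, where 19.7% of all genes tested lay above and 18.1% below. Of 17 tested genes for droplet coat and assembly, 1 was higher and 0 lower, with a median log2 fold change of 0.13. The gene was Cidec, which fuses droplets into larger ones, with an FPKM of 1.37 and 0.282 in WT against 7.92 and 2.79 in KO, and only 9 reads in WT pool 2. Its log2 fold change was 2.12 (standard error 0.63; limma adjusted p = 0.785, range 0.746 to 0.824 over the alternatives). Mettl7b, a droplet-associated methyltransferase and the highest of the list, had 187 and 129 in WT and 198 and 212 in KO. Vps13c, a lipid transfer protein at organelle contacts, had the lowest log2 fold change, -0.41, and -0.27 without WT pool 2.

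Among 18 tested genes of lipolysis and lipophagy, 1 was higher and 0 lower at an unadjusted p under 0.05, with a median of 0.14. Abhd6, a monoglyceride hydrolase, had an FPKM of 11.3 and 8.06 in WT against 17.3 and 13.9 in KO, a log2 fold change of 0.67 (limma adjusted p = 0.785, range 0.746 to 0.824 over the alternatives), and 0.44 without WT pool 2. The carboxylesterase Ces1f had 98.8 and 80.0 in WT and 122 and 112 in KO. Abhd12, a lysophospholipid lipase, had the lowest value of the list, -0.05, which turned to 0.04 without KO pool 2. Abhd5, the co-activator that opposes G0s2 at the Pnpla2 lipase, was named after its values had been seen and had 7.42 and 6.21 in WT and 5.96 and 8.64 in KO, with overlap.

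Of 22 tested genes of glycerolipid and steryl ester synthesis, 1 was higher and 0 lower, with a median of 0.09. Gpam, which adds the first acyl chain to glycerol-3-phosphate, had an FPKM of 22.0 and 15.8 in WT against 30.7 and 27.5 in KO, a log2 fold change of 0.63 (limma adjusted p = 0.785, range 0.746 to 0.824 over the alternatives), and 0.40 without WT pool 2. Gpd1, which supplies glycerol-3-phosphate, had 143 and 74.3 in WT and 257 and 127 in KO, and the groups overlapped. Soat1, a sterol acyltransferase, had the lowest log2 fold change of the list, -0.17, which turned to 0.04 without WT pool 2.

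Fatty acid uptake and activation had 20 tested genes, 2 higher and 2 lower at an unadjusted p under 0.05, and a median of 0.32, which was 0.171 without WT pool 2 and 0.223 with no filter on low genes. The higher genes were Acsl4, an acyl-CoA synthetase for arachidonate, with an FPKM of 31.7 and 23.1 in WT against 70.4 and 38.5 in KO, and the fatty acid transporter Slc27a4, with 17.6 and 16.3 and then 26.0 and 21.3. Of the lower genes, the acyl-CoA synthetase Acsl3 had 5.73 and 5.51 in WT and 4.39 and 4.55 in KO. Slc27a2, the highest of the list, had a log2 fold change of -0.03, between -0.24 and 0.19 with 1 pool left out. Fabp1, a fatty acid-binding protein, had 6.08 and 2.21 in WT and 11.4 and 6.13 in KO, which are barely apart.

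The list of fatty acid synthesis had 16 tested genes, of which 0 were higher and 3 lower at an unadjusted p under 0.05, and a median of -0.03. All 3 were desaturases. Scd1, which makes oleate, had an FPKM of 24.5 and 20.3 in WT against 8.02 and 16.0 in KO, a log2 fold change of -0.94 (limma adjusted p = 0.785, range 0.761 to 0.824 over the alternatives), and -0.47 without KO pool 1. Fads1, the delta-5 desaturase, had 34.5 and 33.9 in WT and 23.9 and 25.1 in KO, a log2 fold change of -0.47 (limma adjusted p = 0.708, range 0.627 to 0.782 over the alternatives). In Fads2, the delta-6 desaturase, the values were 59.6 and 56.8 in WT and 43.5 and 45.9 in KO. Me1, a source of NADPH and the highest of the list, had a log2 fold change of 0.05, which turned to -0.05 without WT pool 2. Acacb, the carboxylase that limits mitochondrial fatty acid entry, had 0.38, and 0.05 without WT pool 2.

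Among 19 tested regulators of droplet genes, 2 were higher and 2 lower at an unadjusted p under 0.05, and the median of 0.04 turned to -0.0238 with quantile normalization. Ppara, the nuclear receptor that drives fatty acid oxidation genes and is known to act on Plin2 and Hilpda, had an FPKM of 19.0 and 14.8 in WT against 31.95 and 29.1 in KO. Its log2 fold change was 0.84 (standard error 0.16; limma adjusted p = 0.650, range 0.623 to 0.778 over the alternatives). The co-activator Ppargc1b had 1.86 and 1.94 in WT and 2.94 and 3.07 in KO. Lower in both KO pools were Srebf1, the regulator of fatty acid synthesis genes, with 13.99 and 18.9 in WT and 12.0 and 11.4 in KO, and the oxysterol receptor Nr1h3, with 16.4 and 16.0 and then 11.5 and 12.5. Angptl4, a lipoprotein lipase inhibitor, had 41.6 and 26.3 in WT and 86.8 and 44.5 in KO (limma adjusted p = 0.797, range 0.746 to 0.824 over the alternatives), and Cebpb, a transcription factor of injury and fat cell formation, 43.6 and 47.5 and then 78.4 and 49.6.

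**Figure D4:**
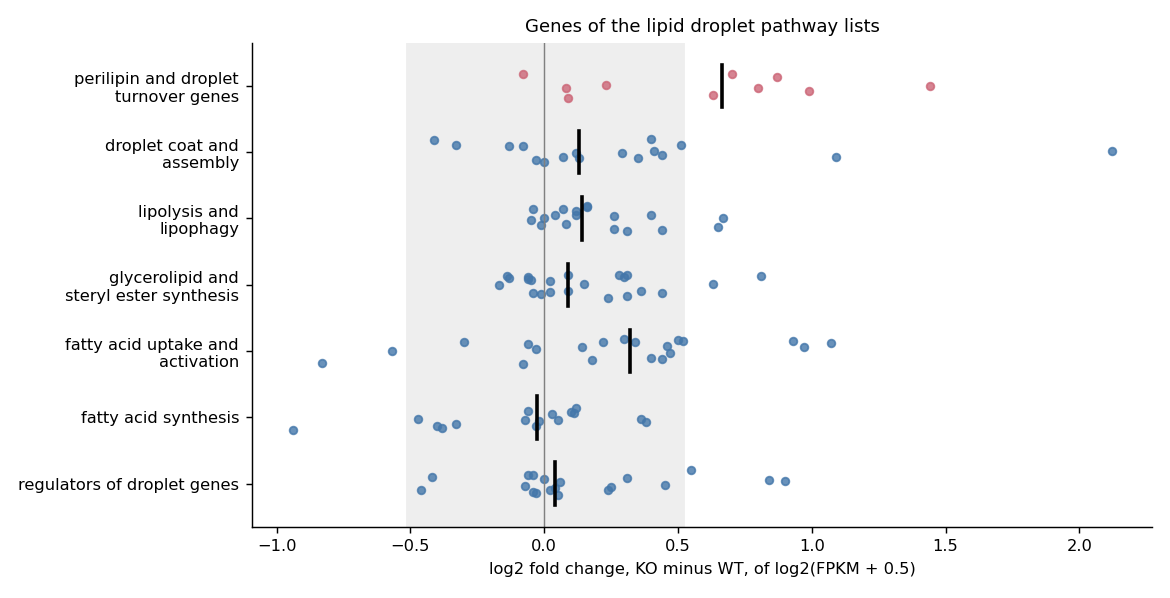
Log2 fold change, KO minus WT (horizontal axis), of each tested gene in the set of 10 and in the 6 pathway lists, with a black bar at each median and grey between the 5th and 95th percentile of all genes tested (-0.512 to 0.521). The medians of the 6 lists lie between -0.03 and 0.32, and the set of 10, which contains Plin2, has a median of 0.66 (0.34 without WT pool 2 and 0.39 without KO pool 1).

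Markers of other cells and states were compared beside the droplet genes, and their part in the differences was not tested. The summed FPKM of 20 proximal tubule markers was 15380 and 8227 in WT against 11040 and 14810 in KO, which overlap. Kap, an androgen-regulated gene, held most of this sum, with 8976 and 4387 in WT and 6038 and 9316 in KO. Both KO pools lay below both WT pools in 6 of the 19 tested markers and above in 2, where 18.1% and 19.7% of all genes tested did. Of 19 tested, 3 were lower at an unadjusted p under 0.05 (Gatm, Slc5a2 and Lrp2) and 0 higher, where 3.03% and 3.29% of all genes tested were. The median of -0.14 lay between -0.444 and 0.113 with each pool left out. The summed FPKM of 19 macrophage markers was 574 in WT pool 2 and 250 to 305 in the other pools, and the median over 17 tested, -0.55, was 0.03 without WT pool 2. Without that pool the log2 fold change of Plin2 was 1.32, of Hilpda 1.11, of G0s2 0.66, of Pnpla2 0.56 and of Plin5 0.47. In 5 of the 17 tested macrophage markers both KO pools lay below both WT pools, and in 1 above. Of all genes tested, 18.1% lay below and 19.7% above. Of the macrophage markers, Cd163 had 0.422 and 0.341 in WT, below the minimum of 0.5, and 0.865 and 1.14 in KO, so that it was tested only because of its KO values, and Cx3cr1 had the lowest log2 fold change, -0.87, and -0.35 without WT pool 2.

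Of 16 adipocyte markers, 9 were under an FPKM of 0.5 in every pool and 2 at 0. Adipoq, the defining hormone of the adipocyte, was at 0 in 3 pools and 0.268 in KO pool 2. Lep, Retn and Cfd had 0 to 2 reads. These 4 were named as defining markers after their values had been seen. Plin1, also of this list but too low to be tested, had 4 and 1 reads in WT against 27 and 9 in KO. Cidec, Thrsp and Tshr, 3 of the 7 tested, were higher in each KO pool than in any WT pool and 0 were lower in each, where 19.7% and 18.1% of all genes tested did. Thrsp had 1.36 and 1.14 in WT and 1.88 and 1.60 in KO, and Tshr 0.662 and 0.358 and then 1.501 and 0.758. Among the 7 tested, 1 was higher at an unadjusted p under 0.05 (Cidec), where 3.29% of all genes tested were. The median was 0.36, and 0.101 with no filter on low genes. Car3 had the lowest log2 fold change, -0.54, which turned to 0.38 without KO pool 2. Nearly all of their summed FPKM came from Pck1, which is also a proximal tubule gene, at 1771 and 575 in WT and 2122 and 1594 in KO. Of 10 adrenal cortex and 11 skeletal muscle markers, 7 each were under 0.5 in every pool and 0 had an unadjusted p under 0.05. The medians were 0.20 over 3 tested (Fdx1 0.29, Star -0.07), which turned without KO pool 1, and 0.03 over 2 tested (Mylpf 0.37, Pvalb -0.31), which turned under several settings. Fdx1 was 0.02 without WT pool 2, and without KO pool 1 Mylpf was 0.04 and Pvalb 0.59. With no filter on low genes the median of adrenal cortex markers was 0.039.

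Kidney injury markers lay in both directions. Of 14, 3 were higher and 1 lower at an unadjusted p under 0.05, where 3.29% and 3.03% of all genes tested were. Both KO pools lay above both WT pools in 5 and below in 1, where 19.7% and 18.1% of all genes tested did. The median of 0.11 turned to -0.0535 with quantile normalization. Lcn2, the secreted injury marker NGAL, had an FPKM of 133 and 95.2 in WT against 249 and 273 in KO. Krt20 had 35.6 and 36.8 in WT and 60.0 and 61.0 in KO, and the cell cycle inhibitor Cdkn1a 25.8 and 24.9 and then 59.0 and 45.7. The adhesion molecule Vcam1 had 14.6 and 31.1 in WT and 10.5 and 2.59 in KO, a log2 fold change of -1.91, which was -0.99 without KO pool 2. The 17 hypoxia response genes, a list without Hilpda, had a median of 0.13 (0.0731 without KO pool 1), with 0 genes at an unadjusted p under 0.05 in either direction, 6 with both KO pools above and 0 with both below, where 19.7% and 18.1% of all genes tested did. Adm, a vasodilator peptide with 8.99 and 2.91 in WT and 10.7 and 10.8 in KO, had the highest log2 fold change, 0.99 (limma adjusted p = 0.797, range 0.770 to 0.824 over the alternatives), which was 0.25 without WT pool 2. The glycolytic regulator Pfkfb3 was lowest at -0.21 and turned to 0.18 without KO pool 2.

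The genes whose pattern over the 4 pools was most like that of Plin2 were sought by the root mean square distance between centred log2(FPKM + 0.5) values, among the 5079 genes whose mean FPKM reached 10. The nearest were the biliverdin reductase Blvrb (distance 0.113), Lcn2 (0.141), the metallothionein Mt2 (0.151), an assembled gene without a name (0.167) and Gm48135 (0.198). Blvrb had an FPKM of 9.33 and 7.13 in WT against 19.1 and 20.5 in KO. The WT means of Blvrb (8.23) and Gm48135 (5.29) were below 10, so both entered the search only because of their KO values. Mt2 had 15.1 and 12.2 in WT and 30.5 and 30.9 in KO. The distance takes in the difference between the groups that chose Plin2, and the likeness has no test.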

How the data were processed

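Poly(A) RNA of 4 kidney pools was sequenced. The authors deposited FPKM for each gene and library, with gene length and position. The submitters' processing notes name HISAT2 2.0.5 and mm10 (GRCm38.p6); the counting tool, its use of strand and the model for testing are not given in the sources used here. Reads were recovered from FPKM and gene length, came out whole in 100% of the nonzero values (within 0.01), and were used for depth and for voom weights. Intervals rest on the moderated variance of limma, which combines a gene's own spread between pools with that of genes of similar level. Of the genes shared with GENCODE M21, 97.1% had identical coordinates; Plin3 did not, and its distance to Plin5 is that of M21.

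The comparison of KO against WT used limma 3.58.1 (R 4.3.3; lmFit, eBayes with trend, two-sided, no covariates) on log2(FPKM + 0.5). Genes entered it if their mean FPKM reached 0.5, and p-values were adjusted by Benjamini-Hochberg. Lists are given by counts and medians. The fits were tested on simulated data. Python 3.11.15, numpy 2.4.6, pandas 2.3.3, scipy 1.17.1 and matplotlib 3.10.9 were used for the rest. The genes of the set and the lists were chosen with earlier results of these data known. Named by rule were the 10 genes, Apela, the highest gene of each pathway list, the largest log2 fold change up and down and each gene at an unadjusted p under 0.05 in each list, genes that overlap a droplet gene, and the 5 genes nearest to Plin2. A gene that the rule names in the list of fatty acid uptake and activation is not reported here. Tried as alternatives were a pseudocount of 0.1 or 1, no filter, a minimum of 1, quantile normalization, no trend, a replicate block, voom weights, protein-coding genes only, recovered reads for ratios and shares, Plin1 added to the perilipin sum, and each pool left out as a value without a test.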

Additional observations from a re-analysis of the deposited data

How the results depend on the processing

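With n = 2 pools, leaving out 1 pool moved more values than the other settings did. Each of the 10 genes kept its direction with both other pseudocounts, quantile normalization and voom weights. The other 5 settings leave the log2 fold change as it is and change only its test. In all 9 fits the number of genes at an adjusted p under 0.05 in limma stayed 0. At an unadjusted p under 0.05 the main fit had 974 genes. The alternatives had from 822 (protein-coding genes only) to 1538 (no filter). Replicate numbers did not pair the pools (correlation of same-numbered deviations -0.00166 across 15414 genes), and a fit with the replicate number as a block gave 0 and 932. Of the 9 genes apart from Plin2, 4 had an unadjusted p under 0.05, and 3 with no filter or no trend, where Plin5 was lost.

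With 1 pool left out, the log2 fold change ranged from -0.244 to 0.0892 for Plin3 (0.0294 without KO pool 1), -0.315 to 1.58 for Plin4, -0.0369 to 0.191 for Dgat1, -0.0965 to 0.548 for Dgat2 and -0.243 to 0.424 for Lipe (-0.0871 without WT pool 2). List medians ranged from 0.0854 to 0.229 for lipolysis, 0.0396 to 0.24 for glycerolipid synthesis, 0.171 to 0.311 for fatty acid uptake, -0.0129 to 0.106 for regulators, -0.444 to 0.113 for proximal tubule (0.0933 without KO pool 1), -1.21 to 0.0254 for macrophage, -0.196 to 0.36 for adrenal cortex, -0.25 to 0.315 for skeletal muscle (-0.163 without WT pool 2) and -0.229 to 0.178 for kidney injury markers. The KO minus WT difference in the ratio of inhibitors to Pnpla2, -0.0368, ranged from -0.148 to 0.0747. That in the share of Plin4, 0.0141 percentage points, ranged from -0.971 to 0.999, with -0.469 without WT pool 2.

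Quantile normalization turned the medians of regulators (-0.0238) and kidney injury markers (-0.0535). That of skeletal muscle markers was -0.00412 with a pseudocount of 0.1, -0.31 with a minimum FPKM of 1 and -0.0227 with voom weights. Fatty acid uptake had a median of 0.223 with no filter. Recovered reads in place of FPKM gave a difference of 13.7 percentage points in the share of Plin2, where FPKM gave 17.9, and -0.166 in that of Plin4. The cause was not tested. The other values, 217 under these settings and 87 with 1 pool left out, stayed within the spread between pools or on the same side. Many of the 217 could not move, since several settings leave a gene's log2 fold change as it is. Under these settings the 10 genes were judged by direction alone, and with 1 pool left out by the spread between pools. Of the 10 genes, Hilpda has the fewest reads, 31 to 91.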
